A study of Mus musculus with 2 samples.

Results

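The interferon-inducible GTPases described here are 10 mouse genes: Tgtp1, Tgtp2, Igtp, Irgm1, Irgm2 and Iigp1 of the immunity-related GTPase (IRG) family, and Gbp2, Gbp3, Gbp6 and Gbp7 of the guanylate-binding proteins (GBP). They were taken by gene identity, as all array probes whose RefSeq accession belongs to one of them. This gave 14 probes of 55681 and 10 genes of 20284 that could be named. RNA came from whole liver of wild-type (WT) C57B6J mice and of CREBH KO mice, which are CREBH null and have the strain background C57B6J. CREBH, encoded by Creb3l3, is a transcription factor of hepatocytes held in the endoplasmic reticulum membrane until it is cleaved, and is known for its part in the response to fasting. Mice of each genotype were fed ad lib or fasted for 24 h, and RNA was pooled per group, and the number, age and sex of the mice in a pool are not stated in the labels. Each of 2 two-colour arrays held 1 feeding state, with the WT pool in Cy3 and the KO pool in Cy5. The study therefore has 4 pools measured once each, with no replicates and no dye swap. No difference below has a test, and dye and genotype cannot be told apart within an array.

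IRG and GBP proteins are large GTPases that cells make in quantity after exposure to interferon, above all interferon gamma. They assemble on the membrane around intracellular bacteria and parasites and help to break it open. Among the IRG proteins, Tgtp1, Tgtp2 and Iigp1 are effectors that coat the pathogen's vacuole. Igtp (also called Irgm3), Irgm1 and Irgm2 sit on the cell's own membranes and hold the effectors inactive there. Proteins of the autophagy machinery are needed to direct both families to their target. Interferon acts on these genes through short promoter elements, the palindromic GAS element and the interferon-stimulated response element (ISRE), to which IRF1 binds.

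The start regions of these genes carry the letters of those elements, and they are printed first because the arrays measured the transcripts made from them. From the RefSeq promoter table (build GRCm38.p6) 8 of the 10 genes were taken, without Gbp6 and Iigp1. The chromosome of Iigp1 was left out when the members were taken, so its absence from the table itself is not shown. The 250 bases before each start were searched on both strands for the ISRE core (GAAA, any 2 bases, GAAA) and for the GAS core TTCNNNGAA, which is its own reverse complement. All 8 held the ISRE core, against 2.98% of 32851 promoters in the table (978). The GAS core stood in 5 of the 8, against 7.02% of all promoters. Both cores together stood in those same 5, Tgtp1, Tgtp2, Igtp, Irgm2 and Gbp7, against 0.332% of all promoters (109). A match describes letters and is not a measured binding site. Each line gives 60 bases of the gene's strand, 5′ to 3′, with the cores in capitals:
Tgtp2: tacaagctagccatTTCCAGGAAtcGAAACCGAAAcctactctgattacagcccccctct
Tgtp1: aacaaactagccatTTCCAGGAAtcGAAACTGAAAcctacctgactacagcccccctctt
Igtp: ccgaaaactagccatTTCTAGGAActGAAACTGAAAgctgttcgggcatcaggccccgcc
Irgm2: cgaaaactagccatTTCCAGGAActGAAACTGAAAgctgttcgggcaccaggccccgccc
Irgm1: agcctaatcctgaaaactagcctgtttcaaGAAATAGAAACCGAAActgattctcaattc
Gbp2: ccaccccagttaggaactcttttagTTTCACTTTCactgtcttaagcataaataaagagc
Gbp3: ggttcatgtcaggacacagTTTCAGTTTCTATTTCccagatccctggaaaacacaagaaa
Gbp7: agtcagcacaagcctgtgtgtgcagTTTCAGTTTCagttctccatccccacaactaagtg

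The IRG windows lie at chr11:49064248-49064307 (Tgtp2, minus strand), chr11:48992289-48992348 (Tgtp1, minus), chr11:58199496-58199555 (Igtp, plus), chr11:58214888-58214947 (Irgm2, plus) and chr11:48871421-48871480 (Irgm1, minus). The GBP windows lie at chr3:142620579-142620638 (Gbp2), chr3:142559980-142560039 (Gbp3) and chr3:142530258-142530317 (Gbp7), all on the plus strand. In Tgtp1, Tgtp2, Igtp and Irgm2 the GAS core was followed after 2 bases by the ISRE core, in 1 block. In Tgtp2 the GAS core ran from base -81 to -73 and the ISRE core from -70 to -61, counted from the annotated start. In Igtp they ran from -45 to -37 and from -34 to -25. Irgm1 had 2 overlapping ISRE cores and no GAS core in the searched bases. The GBP genes had the ISRE core in the reverse reading (TTTC, any 2 bases, TTTC), between base -59 and -30, and the GAS cores of Gbp7 lay before the printed stretch. Over 74 bases aligned without gaps on the ISRE core, Igtp and Irgm2 shared 97.3%.

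Of 59305 gene spots per array, 39.8% to 45.8% were well above background by the scanner software, depending on the channel. A gene was taken as measured in a comparison when at least 50% of its spots passed in each channel compared, and the brightest probe stood for a gene. Signals are normalized and on the log2 scale, and a difference of 2-fold or more (1 on the log2 scale) is the rule of size. The median SD between spots of a probe printed 10 times was 0.086 for the fed log2 ratio of KO over WT and 0.079 for the fasted one. This technical spread leaves out the variation among mice, RNA pools and labelling. The single Creb3l3 probe was lower in the KO pool, with a log2 ratio of -0.88 fed and -2.07 fasted. The fed value turns to 0.31 when each array is centred on the median of all gene spots in place of loess normalization. The labels do not say whether that probe lies in the deleted part, so a remaining KO signal checks nothing. Hepatocyte markers identified the tissue as labelled: all 10 were measured in every pool, and their summed signal ranged from 657000 to 710000.

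The effector Tgtp2 showed the widest range of all members. Its signal was 13.28 in the fed WT pool, 9.33 in the fed KO pool, 9.88 in the fasted WT pool and 10.20 in the fasted KO pool. Fed WT stood alone at the top, and the 3 other pools lay within 1 log2 unit of each other. The fed KO over WT ratio was -3.95, a 15.5-fold lower signal in the KO pool, and the lowest of 11377 measured genes. The technical SD of like-bright probes was 0.08. In the fasted state the ratio was 0.32, a 1.24-fold higher signal in the KO pool. The scanner software's own ratios were -4.14 with an error of 0.44 (fed) and 0.33 with an error of 0.21 (fasted).

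Tgtp1 and Tgtp2 encode near-identical proteins, and a probe for one may catch transcripts of the other, so their values are uncertain as to the gene. The Tgtp1 probe was well above background in the fed WT pool only, with a signal of 6.85 against 6.0, 5.95 and 6.08 in the fed KO, fasted WT and fasted KO pools. Its signal in fed KO was thus at least 1.70-fold lower than in fed WT, and in fasted WT at least 1.72-fold lower. A second Tgtp2 probe was as dim, at 6.32 in fed WT, and gave bounds of 1.18-fold and 1.19-fold in the same directions. Bounds set the fed WT signal over the lowest signal that passed as above background in the dim pool, or over the dim probe's own signal where that was higher.

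The other effector measured, Iigp1, had the same highest and lowest pool as Tgtp2, with smaller differences. Its brighter probe read 11.76 in fed WT, 9.96 in fed KO, 10.60 in fasted WT and 10.54 in fasted KO. Both fasted pools were alike and lay between the fed ones. The ratio was -1.80 fed (3.49-fold lower in KO) and -0.06 fasted, with a technical SD of 0.07 for each. A second, dimmer probe gave -1.62 and -0.03.

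Igtp was the most precisely measured member, because its probe is printed 10 times on each array and 9 spots could be used on both. The mean signal was 12.35 in fed WT, 9.89 in fed KO, 10.44 in fasted WT and 10.62 in fasted KO. Across the 9 spots the fed ratio ran from -2.53 to -2.39, with a mean of -2.46 ± 0.043 (SD, n = 9 spots of 1 array). The fasted ratio ran from 0.02 to 0.25, with a mean of 0.18 ± 0.072 (SD, n = 9 spots of 1 array). The spots of the 2 arrays did not overlap. Spots of 1 array repeat the hybridisation and not the mice.

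The other regulators, Irgm1 and Irgm2, differed less between pools. Irgm2, whose start region is almost that of its neighbour Igtp, read 11.06 in fed WT, 9.67 in fed KO, 10.09 in fasted WT and 9.99 in fasted KO. This gave -1.39 fed (2.63-fold lower in KO) and -0.10 fasted. Irgm1 read 11.55, 10.35, 10.41 and 10.07 in the same order of pools. Its ratios were -1.21 fed (2.31-fold lower in KO) and -0.33 fasted, and it was the only member measured in all pools whose lowest pool was fasted KO and not fed KO. The second Irgm1 probe gave -0.65 and -0.06, under the 2-fold rule in both states.

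**Figure D1:**
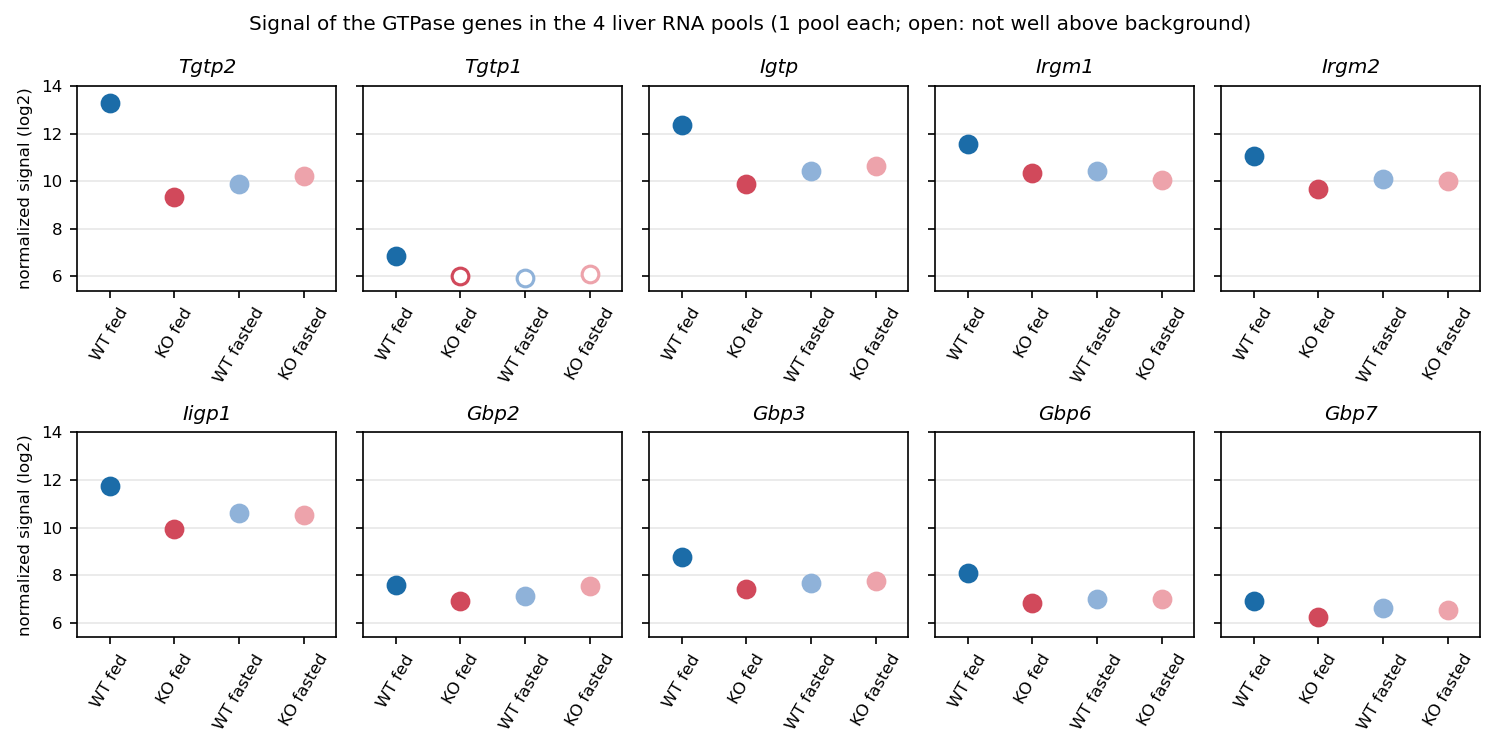
Normalized signal (log2) of the 10 genes in the 4 liver RNA pools, 1 point per pool and the brightest probe per gene, with open points where the probe was not well above background. The fed WT pool is the highest in each panel, from 13.28 for Tgtp2 to 6.85 for Tgtp1.

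By the brightest probe per gene, the GBP genes were dimmer in fed WT than the IRG genes other than Tgtp1. Signals of different probes are not compared as transcript levels. Gbp3 read 8.78 in fed WT, 7.43 in fed KO, 7.67 in fasted WT and 7.74 in fasted KO. Gbp6 read 8.10, 6.85, 7.02 and 7.0 in the same order. In both genes the 3 pools other than fed WT lay within 0.4 of each other. The fed ratio was -1.35 for Gbp3 (2.54-fold lower in KO) and -1.25 for Gbp6 (2.39-fold lower in KO), against fasted ratios of 0.06 and -0.02. A second Gbp6 probe differed in the fasted state: it gave -0.87 fed and -0.48 fasted, so the fasted value of this gene depends on the probe.

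Gbp2 and Gbp7 stayed under 2-fold. Gbp2 read 7.59 in fed WT, 6.94 in fed KO, 7.15 in fasted WT and 7.55 in fasted KO. Here the fasted KO pool came within 0.1 of fed WT. The ratios were -0.64 fed and 0.40 fasted, each with a technical SD of at most 0.10. Gbp7 read 6.92, 6.23, 6.61 and 6.54, with ratios of -0.69 and -0.07. Such dim probes are drawn towards 0 by the offset of 50 added to every signal. The scanner software, which adds none, gave fed ratios of -1.22 with an error of 0.24 for Gbp2 and -1.68 with an error of 0.32 for Gbp7, both past 2-fold.

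**Figure D2:**
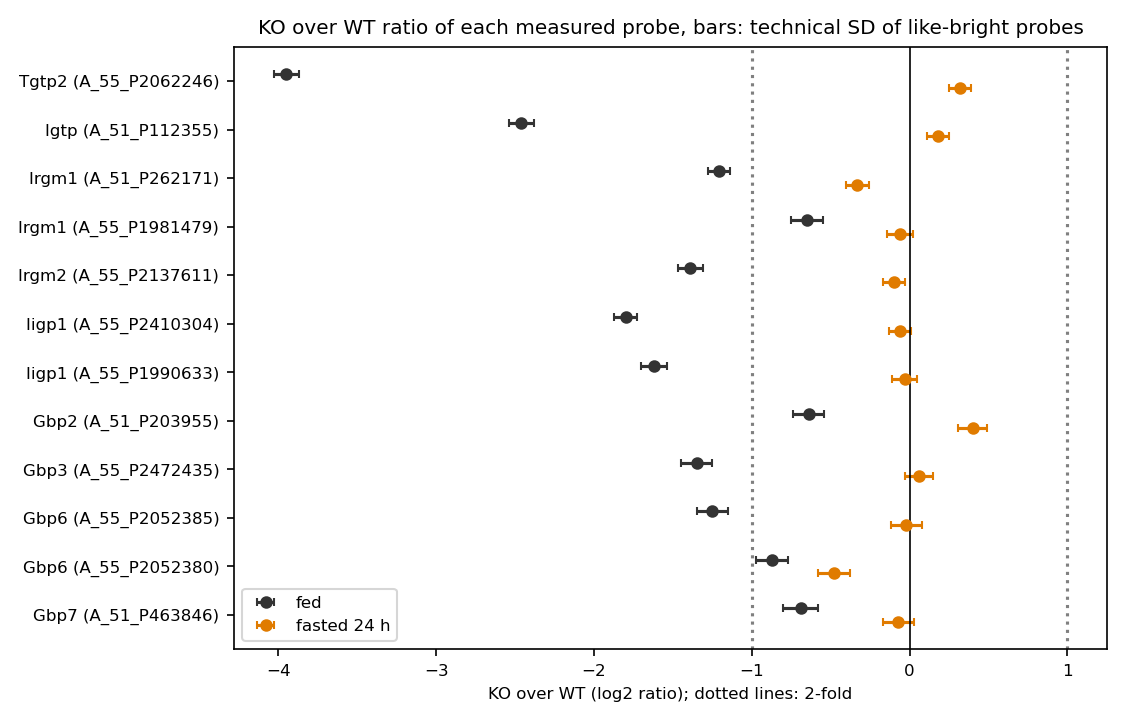
Log2 ratio of KO over WT for each measured probe, fed (dark) and fasted for 24 h (orange), with bars for the technical SD of probes of like brightness. Every fed point lies left of its fasted partner, with the widest gap for Tgtp2 (-3.95 against 0.32) and the narrowest for the second Gbp6 probe (-0.87 against -0.48).

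As a group, the GTPase genes were lower in the fed KO pool and near equal in the fasted pools. In the fed state 9 members were measured in both pools, all 9 were below 0, and 7 were at least 2-fold lower in KO, with a median of -1.35. Among all 11377 genes measured there, 46.9% were below 0, 0.396% (45) were at least 2-fold lower, and the median was 0.01. Centring each array on the median of all gene spots left 2 members, Tgtp2 and Igtp, at least 2-fold lower, with a members' median of -0.66 where that of all genes was 0.78. After Tgtp2 at rank 1 from the lowest, Igtp stood at 5, Iigp1 at 9, Irgm2 at 23, Gbp3 at 25, Gbp6 at 28 and Irgm1 at 32. Gbp7 and Gbp2 stood at 106 and 124. In the fasted state none of the same 9 members differed 2-fold, where 0.432% of 12262 genes were at least 2-fold lower and 0.359% at least 2-fold higher. The fasted ratios ran from -0.33 (Irgm1) to 0.40 (Gbp2) around a median of -0.02. Their sign turns with the centring for 5 members, so no direction is given for them.

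**Figure D3:**
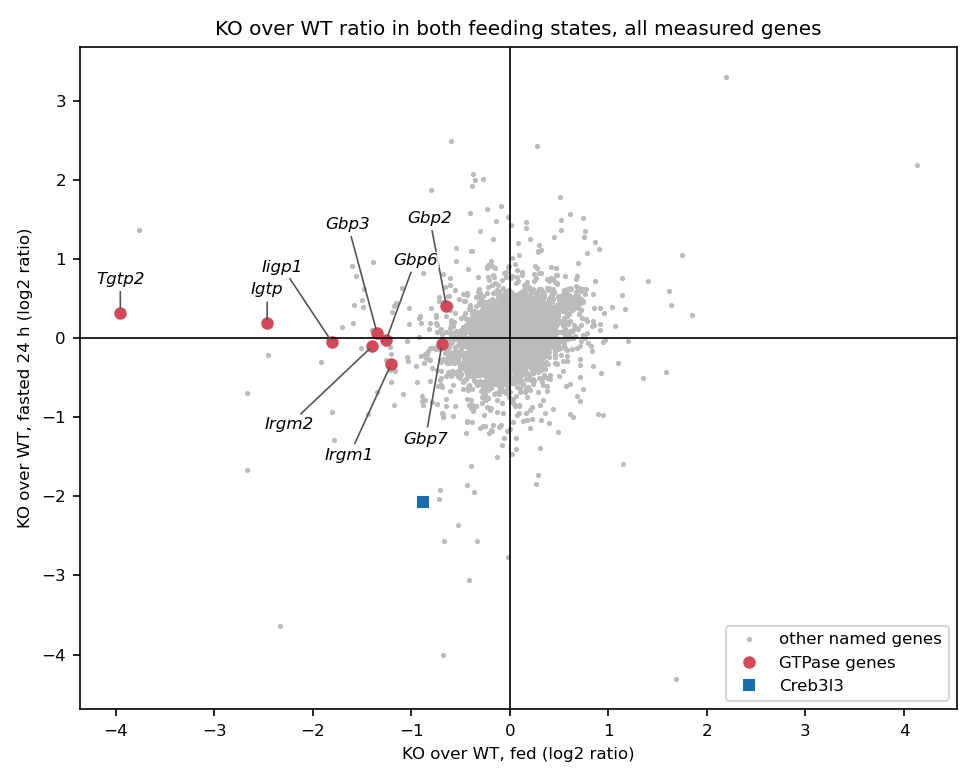
Log2 ratio of KO over WT in the fed state (x) against the fasted state (y) for every gene measured in all 4 pools, with 9 GTPase genes in red and Creb3l3 as a blue square. The red points spread along the x axis from -3.95 to -0.64 and stay between -0.33 and 0.40 on the y axis, while Creb3l3 lies lowest on the y axis, at -2.07, of the genes marked.

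Set along the other axis of the design, signals of the members were lower after fasting in WT liver and mostly slightly higher after fasting in KO liver. Fasted over fed in WT was below 0 for all 9 members and at least 2-fold lower for 6, with a median of -1.10. Of all 11441 genes 50.6% were below 0 and 2.05% at least 2-fold lower. Tgtp2 led with -3.40 (10.5-fold lower after fasting), followed by Igtp with -1.91 (3.77-fold lower). Iigp1, Irgm1, Gbp3 and Gbp6 lay between -1.16 and -1.08, Irgm2 just under the rule at -0.97, and Gbp2 and Gbp7 at -0.43 and -0.31. In the KO pools no member differed 2-fold between feeding states, where 2.42% of 11785 genes were at least 2-fold higher after fasting. The KO values ran from -0.27 (Irgm1) to 0.87 (Tgtp2) around a median of 0.32, and 8 of 9 were above 0. Of these, Gbp6 depends on the probe, at 0.15 with the brighter and -0.78 with the other, or -0.31 as the mean of both, and Gbp6 and Gbp7 moved to -0.01 with channels centred on measured genes. Without normalization between the arrays the fasting medians were -0.56 in WT and 0.93 in KO, and all genes then shifted up by 0.46 and 0.45.

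The fasted minus the fed KO over WT ratio uses all 4 pools. It was above 0 for all 9 members and at least 2-fold for 7, with a median of 1.29, where 0.771% of 11290 genes were at least 2-fold higher. It was 4.27 for Tgtp2, 2.65 for Igtp, 1.75 for Iigp1, 1.41 for Gbp3, 1.29 for Irgm2, 1.23 for Gbp6, 1.04 for Gbp2, 0.88 for Irgm1 and 0.62 for Gbp7. The fed genotype ratio, the WT fasting ratio and this difference all share the fed WT pool, which was the highest of the 4 for all 9 members, and fed KO was the lowest for 8 of the 9. They are therefore not separate lines of evidence. With 1 pool per group, a state of the fed WT mice and an effect of the genotype cannot be told apart. In liver RNA, fewer cells of a type and less RNA per cell cannot be told apart either.

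Igtp adjoins Irgm2 and Gbp7 adjoins Gbp3, while Tgtp1 and Tgtp2, and likewise Gbp3 and Gbp2, have 1 protein-coding gene between them. Genes of other function in the same stretches gave a comparison. In the cluster with Igtp and Irgm2 the IRG gene Gm12250 was at -0.92 fed and 0.01 fasted. The genes on either side, Mrpl22 (mitochondrial ribosome) and Zfp692 (a zinc finger protein), both had a fed ratio of 0.08. Near Tgtp2, the interferon-induced GTPase Ifi47 was at -1.18 fed and -0.84 fasted, lower in KO in both states. Its fasted minus fed difference was 0.33, against 4.27 for Tgtp2 next to it. On the far side of Irgm1, Trim7 was at 0.21 and Trim41 at -0.13. Not every gene of these families had a fed ratio well below 0: 9930111J21Rik1, next to Tgtp1, was at -0.04 and Gm5431, next to Irgm1, at 0.17. Gm5431 was dim, at 6.44 in fed WT and 6.61 in fed KO, where the offset draws ratios towards 0. For 9930111J21Rik1 the fed WT signal was 8.18. In the GBP cluster Gbp5 was at -0.61 and Kyat3, an aminotransferase gene after Gbp2, at -0.10.

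**Figure D4:**
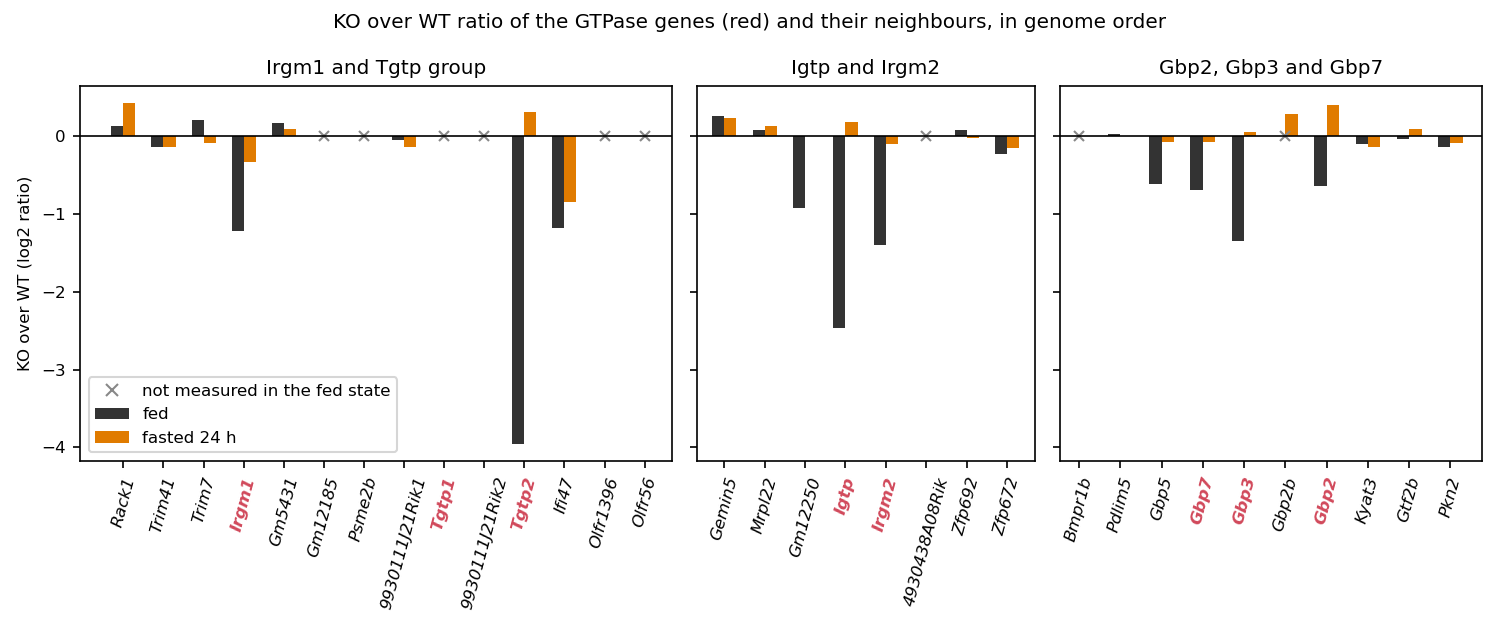
Log2 ratio of KO over WT, fed (dark bars) and fasted for 24 h (orange bars), for members in red and up to 3 genes on either side, in genome order but not to scale, with crosses for genes not measured in the fed state. Iigp1, Gbp6 and their neighbours are not drawn. The long fed bars belong to IRG and GBP genes, such as Igtp at -2.46, and neighbours of other function such as Mrpl22 (0.08) have none. Not every gene of these families has a long bar: 9930111J21Rik1 is at -0.04 and Gm5431, a dim probe (6.44 in fed WT), at 0.17.

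Other listed genes of both families varied more. Of 16 other IRG and GBP genes with a probe, 11 were measured in both fed pools, 9 were below 0 and 2 were at least 2-fold lower, with a median of -0.44. Of all genes 46.9% were below 0 fed and 0.396% at least 2-fold lower. Centring on all gene spots, which lifts the median of all genes to 0.78, put the median of these IRG and GBP genes at 0.10. The very large GTPase gene Gvin1 was at -1.40 fed and 0.10 fasted, and Gbp4 at -1.03 and 0.38. Gm5431 (0.17, a dim probe) and Irgq (0.07) were slightly above 0. The interferon-induced GTPase gene Ifi47, given above as a neighbour of Tgtp2, was not on this list and is not in its counts. It was at -1.18 fed and -0.84 fasted. In fasted against fed WT, Gvin1 was at -2.12. Gm4841, an IRG gene near Iigp1, was left out of these counts because it was well above background in fed WT only, at 9.05 against 6.0, 5.99 and 5.95 in fed KO, fasted WT and fasted KO. Its signal was at least 7.83-fold lower in fed KO than in fed WT, and at least 7.90-fold lower in fasted WT. Gbp2b, not above background in fed KO alone, was at least 1.69-fold lower there than in fed WT.

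Genes that interferon gamma induces showed the same order of feeding states, with smaller differences. Of 21 measured, all were below 0 in the fed state and 7 were at least 2-fold lower in KO, with a median of -0.61. The shares of all genes were 46.9% below 0 and 0.396% at least 2-fold lower. None differed 2-fold in the fasted state (23 measured, median 0.06), where 0.432% of all genes were at least 2-fold lower and 0.359% higher. Centring on all gene spots put the fed median at -0.02, still below that of all genes. Ubd and Cd274, not above background in fed KO, were at least 2.03-fold and 1.29-fold lower there than in fed WT. The T cell chemokine Cxcl9 was at -1.71 fed and 0.14 fasted. The genes past 2-fold included those of MHC class II antigen presentation: Cd74 was at -1.58, H2-Eb1 at -1.50, H2-Aa at -1.49, H2-Ab1 at -1.48 and H2-DMb1 at -1.16 fed, and all 5 lay between 0.40 and 0.62 fasted. Psmb9, an immunoproteasome subunit, was at -1.20 fed and -0.20 fasted. Inducible nitric oxide synthase (Nos2, -0.05) and Casp4 (-0.04) were near 0, but Nos2 was dim, at 6.64 in fed WT, where the offset draws ratios towards 0.

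Genes of the type I interferon response lay below the median of all genes in KO against WT in both states, although with centring on all gene spots their own medians turned to 0.25 fed and 0.33 fasted, under 0.78 and 0.57 for all genes. In the fed state all 23 measured were below 0, 3 were at least 2-fold lower (Oasl1 -1.26, Zbp1 -1.22 and Rtp4 -1.16), and the median was -0.45. Among all genes 46.9% were below 0 and 0.396% at least 2-fold lower. In the fasted state 23 of 24 were below 0, where 47.3% of all genes were, none reached 2-fold, and the median was -0.28. For fasted over fed, 21 of 24 were below 0 in WT (median -0.42, 4 at least 2-fold lower) and 14 of 23 in KO (median -0.20, 1 at least 2-fold lower). For all genes the shares below 0 were 50.6% in WT and 49.8% in KO, and 2.05% and 2.14% were at least 2-fold lower. The antiviral effector Bst2 was lower after fasting in both genotypes, at -1.69 (WT) and -1.88 (KO). Isg15, a ubiquitin-like modifier, was at -1.18 and -0.77 on that axis, and Ifi27l2a at -1.22 and -0.95. Rsad2, an antiviral enzyme, lay on the other side, at 0.84 and 0.70.

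Upstream components differed little or could not be measured. Ifng, Ifnb1, Ifna4, Il12a and Il15 were not well above background in fed or fasted pools of either genotype. The receptor genes Ifngr1 (0.01 fed, 0.25 fasted), Ifngr2 (-0.14, 0.12), Ifnar1 (-0.04, -0.16) and Ifnar2 (-0.18, -0.25) stayed near 0. Of 15 receptor and signalling genes none was 2-fold apart in the fed state, and the median was -0.23. The transcription factor Irf1, a main activator of the GTPase genes, was at -0.71 fed and 0.09 fasted, and Irf7 at -0.86 and -0.78. Among 8 inhibitors of the pathway the median was -0.25, and only Cish, a STAT5-induced suppressor, passed 2-fold, at -2.67 fed and -0.69 fasted. Of the 12 autophagy genes whose proteins load IRG and GBP proteins none was 2-fold apart, and the fed median was -0.03, from -0.39 (Trim21) to 0.45 (Map1lc3b).

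**Figure D5:**
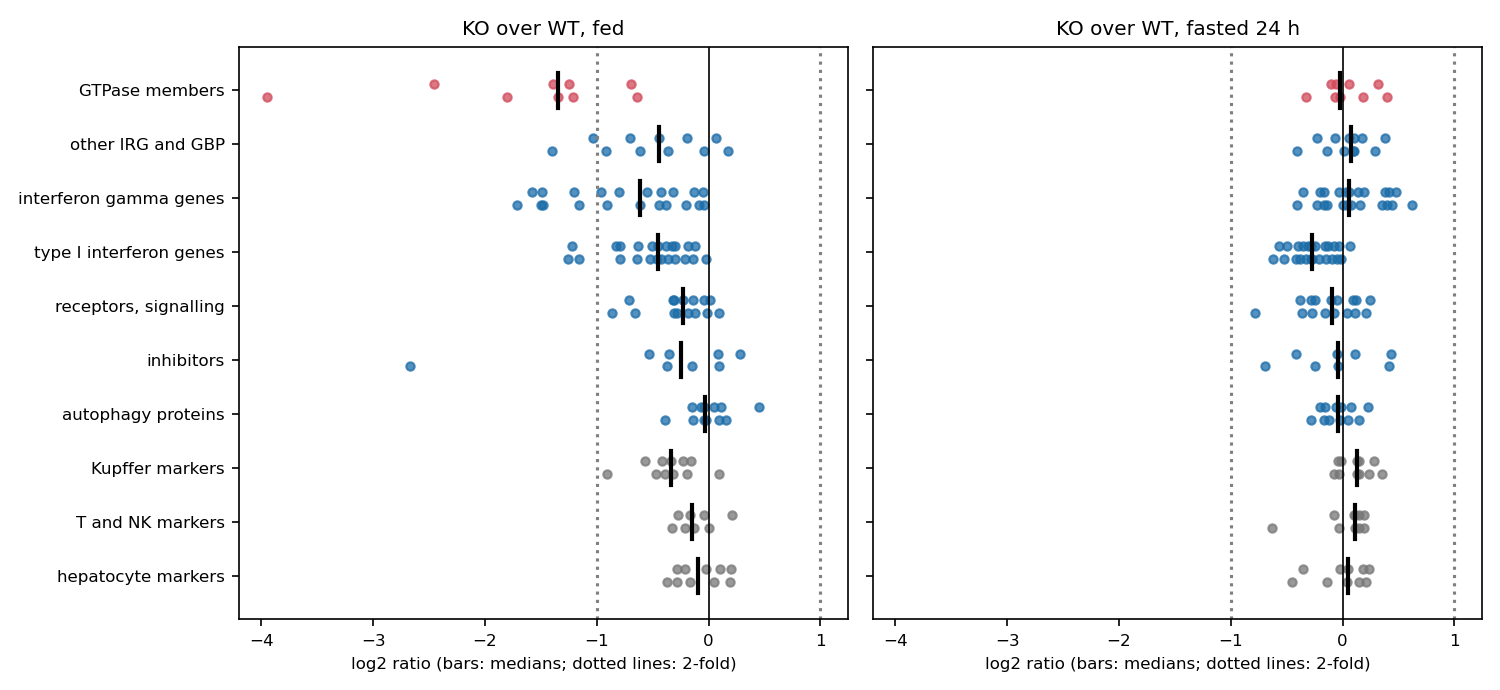
Log2 ratio of KO over WT for the members (red), genes of the interferon pathway (blue) and cell type markers (grey), fed (left) and fasted for 24 h (right), with 1 point per measured gene, black bars for medians and dotted lines at 2-fold. The fed median is -1.35 for the members, -0.61 for interferon gamma genes and -0.03 for autophagy genes, against -0.02, 0.06 and -0.04 fasted.

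Markers of cells that respond to or make interferon moved in part with the members. Of 11 Kupffer cell (liver macrophage) markers 10 were below 0 in the fed state, where 46.9% of all genes were, and none reached 2-fold. Their median was -0.34 (fasted 0.13), or 0.52 fed with centring on all gene spots. Their summed signal was 19300 in fed WT, 14400 in fed KO, 18800 in fasted WT and 19700 in fasted KO, so fed KO was the lowest, as for most members, but fed WT was not set apart. The defining markers Clec4f and Timd4 were at -0.16 and -0.19, and the scavenger receptor gene Marco at -0.91. The T and NK cell markers summed to 4990, 4400, 6020 and 4520 in the same order of pools, with 8 of 16 measured in all pools, and Cd8a, Klrb1c, Ncr1, Gzmb, Klrk1 and Xcl1 not well above background in any pool. Cd4 made up 61.8% to 75.7% of these sums, and without it, a setting chosen after seeing the data, they were 1710, 1680, 1460 and 1580. Of the neutrophil markers 3 were measured in both fed pools, S100a8 at -0.47 fed and 0.46 fasted, S100a9 at -0.61 and -0.01, and Csf3r at 0.16 and -0.01, for medians of -0.47 fed and, over 4 measured, -0.01 fasted. The neutrophil markers summed to 20600, 22700, 18800 and 18600 in the order of pools above, of which Csf3r made up at least 96.4%, and without it to 750, 503, 542 and 593, with Cxcr2 not above background in any pool. The B cell markers Cd79a and Ms4a1 were also not above background in any pool, and Cd79b was at -0.28 fed and -0.44 fasted. The monocyte and dendritic cell markers do not settle whether these cells moved with the members. Of these markers, 3 were measured in both fed pools, Itgax at -0.10, Clec9a at 0.15 and Siglech at 0.03, for a fed median of 0.03. In fed WT, Itgax (6.48) and Clec9a (6.5) read near the lowest signal that passed as above background (6.11). Siglech made up 99.3% of the summed signal there. All 8 sinusoidal endothelial markers were below 0 fed, where 46.9% of all genes were, with a median of -0.10, against 0.06 fasted. Values such as those of Stab2 (-0.02) and Clec4g (-0.03) were smaller than the technical SD of 0.086. With centring on all gene spots 5 of the 8 lay below the median of all genes. The part of these cells in the members' values was not tested.

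The 10 genes whose pattern lay nearest to the members' median over 3 log2 differences (KO over WT fed, KO over WT fasted, and fasting in WT) were named by distance among 11290 genes measured in all 4 pools. The order was Nr4a1 (0.17), Oasl1 (0.29), Psmb9 (0.36), Id3 (0.37), Gm12250 (0.44), Ppard (0.46), H2-DMb1 (0.51), Psmb10 (0.52), Gbp4 (0.52) and Marco (0.53). The nearest, the nuclear receptor gene Nr4a1, was at -1.21, -0.11 and -1.16, against -1.35, -0.02 and -1.10 for the members' median. Of the members, Gbp3 (0.08), Gbp6 (0.10) and Irgm2 (0.16) lay closest to that median, and Tgtp2 farthest (3.49).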

How the data were processed

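The files used are the scanner output (Agilent Feature Extraction) and a table of values. Intensity of each spot and of its background was deposited as the median over pixels, and the deposited processed intensity values were background-subtracted and dye-normalized, per the file headers. The deposited log10 ratios are Cy5 over Cy3 (KO over WT), and the deposited p-value of each rests on the scanner software's error model for 1 spot and is not printed. The authors' value table holds the same ratios as log2. Here, median signals were corrected with normexp (offset 50), normalized by loess within arrays and by Aquantile between arrays (limma 3.58.1, R 4.3.3), without control spots (3671 per array) and outlier spots (216 fed, 197 fasted). The ratio within an array was tested on simulated data, for bright probes only. That test did not cover dim probes or the comparisons between arrays. No gene spot was saturated. Both arrays lay on 1 slide, read in 1 scan.

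Accessions were named through a GRCm38.p6 gene table, used only for names and neighbours, since the array grid names mm9. Members, lists and markers were chosen with earlier results of these data known. Genes named are the members, Creb3l3, list members 2-fold apart or furthest from 0, and the 10 nearest in pattern. Some list members that met this rule were not named with their values. Among them are the markers Col1a1, Col3a1 and Lyve1, 2-fold apart between feeding states, and the cytokine genes Il18 and Ifnl3. Neighbours and further list members were named after their values were seen. The number of arrays limits the precision.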

Additional observations from a re-analysis of the deposited data

Results flagged for a closer look

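The KO over WT ratios of 4 members had opposite signs in the 2 feeding states and lay at least 2-fold apart. Each was below 0 fed and above 0 fasted, and the fasted minus fed difference was 4.27 for Tgtp2, 2.65 for Igtp, 1.41 for Gbp3 and 1.04 for Gbp2. With 1 array per feeding state these differences were not tested, and the fasted value of Gbp3 (0.06) was smaller than the technical SD (0.09).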

How the results depend on the processing

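No member changed sign under any setting tried in the fed KO over WT ratio, in fasting in WT or in the fasted minus fed difference. Centring on the median of all gene spots moved the median of all genes to 0.78 fed and 0.57 fasted. The members' medians were then -0.66 and 0.61, 2 members were at least 2-fold lower fed, and 1 was at least 2-fold higher fasted. All-gene calls, lower against higher, went from 45 and 18 to 9 and 3102 fed, and from 53 and 44 to 16 and 940 fasted. With that centring they went from 234 and 261 to 162 and 281 for fasting in WT, from 252 and 285 to 375 and 256 for fasting in KO, and from 68 and 87 to 124 and 66 for the difference. Centring on measured genes gave 41 and 113 fed and 39 and 106 fasted, with a fasted members' median of 0.11.

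The WT fasting median was -0.97 with the mean over probes. Without normalization between arrays it was -0.56 with 2 members lower, the KO fasting median was 0.93 with 3 members higher, and all-gene calls were 71 and 1081 (WT) and 80 and 1164 (KO). The KO fasting median was also 0.49 with scanner-processed signals, 0.40 with centring on measured genes, 0.52 with an offset of 10 and 0.43 with channels centred on measured genes, and 4 members were higher at 1.5-fold. With scanner-processed signals 9 members were at least 2-fold lower fed. Of the members' single values under alternatives, 352 kept their call and, where under 2-fold, stayed within the technical SD. These 352 include settings that could not change a single gene's value, such as no filter on dim probes. The mean over probes likewise could not change a gene with 1 measured probe, and the authors' value table nearly repeats the scanner-processed signals. The 352 therefore overstate how well the values held. Of the rest, 15 dropped under 2-fold, 18 passed it and 78 moved by more than the technical SD. The causes were not tested. No paired analysis was possible because each group has 1 pool. Signals near background limit Tgtp1, Gbp2 and Gbp7.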
